A study of Mus musculus with 9 samples.

Results

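The genes described here carry iron into cells, store it, send it out, free it from heme or sense it. They are 9 in number, Tfrc, Fth1, Ftl1, Slc40a1, Slc11a2, Ireb2, Aco1, Hmox1 and Slc11a1, and were taken by symbol from a count table of 55367 genes. All 9 passed the filter on low counts that left 15365 genes for testing. The table holds RNA-Seq counts of osteosarcomas that arose in 2 mouse models, 4 tumors from the p53-driven and 5 from the Myc-knockin model, each taken whole. The p53-driven mice (labelled Col2.3-Cre/TrpP53fl/+) carry a Cre driven by an osteoblast-specific fragment of a collagen promoter, and 1 floxed allele of Trp53. The Myc-knockin mice (whose label joins Cre-Lox-Stop-Lox with (LSL)-c-MycT58A and p53fl/+) were bred from these, and carry in addition a c-Myc gene with the T58A substitution behind a Lox-Stop-Lox cassette. Both groups therefore share the floxed Trp53 allele and the osteoblast Cre, and differ in genotype by the Myc allele. No treatment is given, and the labels give no age at which a mouse was killed. The study reports a shorter median time to sacrifice for the Myc-knockin model, so the groups may also differ in age. The comparison asks how the tumors of the 2 models differ in their iron genes.

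Iron reaches most cells bound to transferrin. The transferrin receptor, encoded by Tfrc, takes the complex into endosomes, where ferric iron is reduced and passes into the cytosol through DMT1, encoded by Slc11a2. Iron that is not used is held in ferritin, a shell of heavy (Fth1) and light (Ftl1) chains, and leaves the cell only through ferroportin, encoded by Slc40a1. Macrophages handle large amounts of iron from engulfed red cells, and use heme oxygenase 1 (Hmox1) to open heme and NRAMP1 (Slc11a1) to move iron out of phagosomes. The iron regulatory proteins, encoded by Aco1 and Ireb2, bind hairpins called iron-responsive elements when iron is scarce. A hairpin in a 5′ UTR is then blocked for translation, and hairpins in a 3′ UTR shield the message from decay, so that ferritin is mostly set by translation and the transferrin receptor by the level of its mRNA. A message level such as those below therefore reads the receptor more directly than ferritin protein.

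The hairpins are shown because they sort the members into those whose message level and those whose translation the regulatory proteins are known to set. The UTRs of all members were searched on the sense strand for a C, 5 stem bases, a CAGTGN loop and 5 further stem bases, with at least 4 of 5 stem bases able to pair (G-U pairs allowed). In each sequence below the loop is in capitals, and the sequence is that of mm10, read 5′ to 3′ on the gene's strand.
Tfrc 3′ UTR, chr16:32631225-32631241 (+): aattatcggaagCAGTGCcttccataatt
Tfrc 3′ UTR, chr16:32631604-32631620 (+): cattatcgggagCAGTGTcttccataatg
Tfrc 3′ UTR, chr16:32631669-32631685 (+): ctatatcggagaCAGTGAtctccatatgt
Tfrc 3′ UTR, chr16:32631716-32631732 (+): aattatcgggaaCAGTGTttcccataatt
Fth1 5′ UTR, chr19:9982738-9982754 (+): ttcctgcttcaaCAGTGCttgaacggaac
Ftl1 5′ UTR, chr7:45459785-45459801 (-): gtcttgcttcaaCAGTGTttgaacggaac
Slc40a1 5′ UTR, chr1:45925471-45925487 (-): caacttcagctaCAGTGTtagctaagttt
Slc11a2 3′ UTR, chr15:100395159-100395175 (-): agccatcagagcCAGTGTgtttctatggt
The coordinates are those of the 17-base match within the 29 bases printed. The match in Slc11a2 had 4 of 5 stem pairs and the others had 5 of 5. Ireb2, Aco1, Hmox1 and Slc11a1 had no match in these UTRs. Among all genes with an annotated UTR, 206 of 20916 (0.985%) had a match in the 5′ UTR and 872 of 21045 (4.14%) in the 3′ UTR, and with all 5 pairs the shares were 0.148% and 0.613%. A match is a description of letters, not a measured binding site.

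The libraries differ in ways that touch the members, so these values stand first. Levels are given as CPM, counts relative to the library's TMM-normalized total. Total counts per tumor ran from 2716322 to 17073285. In F187, M351, M408 and M9 between 23.2% and 81.0% of the counts fell on 11 satellite-repeat genes, against at most 0.0242% in the other 5 libraries. Genomic background, estimated from counts on chemosensory receptor genes per kilobase, made up 24.2% of the other counts in M9 and 16.8% in M351, and at most 5.52% elsewhere. M624 and M664, both Myc-knockin, stand apart in other ways. The small RNA Rn7sk was at 3.47 and 6.35 CPM there and at 6545 CPM or more in the other 7, and the globin gene Hba-a1 was at 102 and 388 CPM there and had 0 counts in the other 7. Both lie in 1 group, so what sets these libraries apart and the genotype cannot be told apart for them. The members' fold changes that M624 and M664 move are given with and without these libraries. Of the libraries rich in satellite counts, M351, M408 and M9 are Myc-knockin and only F187 is p53-driven. No Myc-knockin library was therefore of the kind of F325, F331 and F368. The kind of library and the genotype cannot be fully told apart in any of the fits. Myc itself was at 54.3 ± 11.3 CPM (SD, n = 4) in p53-driven and 577 ± 391 CPM (SD, n = 5) in Myc-knockin tumors, without overlap (edgeR adjusted p = 0.0217). Of the osteoblast markers, Col1a1, Col1a2, Ibsp, Sp7, Alpl, Runx2 and Spp1 were detected in every tumor, while the osteocalcin genes had few counts in Myc-knockin tumors, with Bglap2 at 0 in M408 and M624 and Bglap at 0 in M408. The summed levels, 65477 to 141257 CPM in p53-driven and 3610 to 41295 CPM in Myc-knockin tumors, are mostly Col1a1 and Col1a2. In whole tumors, fewer cells of a type and less RNA per cell cannot be told apart.

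None of the 9 genes was called between the models. A call needed an adjusted p under 0.05 by edgeR's quasi-likelihood test and a fold change over 1.5, and 809 of the 15365 tested genes (5.27%) met it, 461 lower (3%) and 348 higher (2.26%) in Myc-knockin tumors. At an unadjusted p under 0.05, 1 member passed by edgeR and 1 by DESeq2, in both cases Slc11a2, where 26.8% of all tested genes passed by edgeR. DESeq2 called 0 members, where it called 4.75% of the 47572 genes it tested. Limma-voom called 1 member, again Slc11a2, where it called 10.8% of all tested genes. The median log2 fold change of the members was -0.12, beside 0.14 over all tested genes. It was -0.56 beside 0.08 without M624 and M664, and 0.17 beside -0.0029 without F187, M351, M408 and M9. The overall median over all 9 tumors was 0.03 when libraries were scaled by size alone and 0.24 with upper-quartile scaling. The groups did not overlap for 1 of 9 members, as for 13% of all tested genes.

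**Figure D1:**
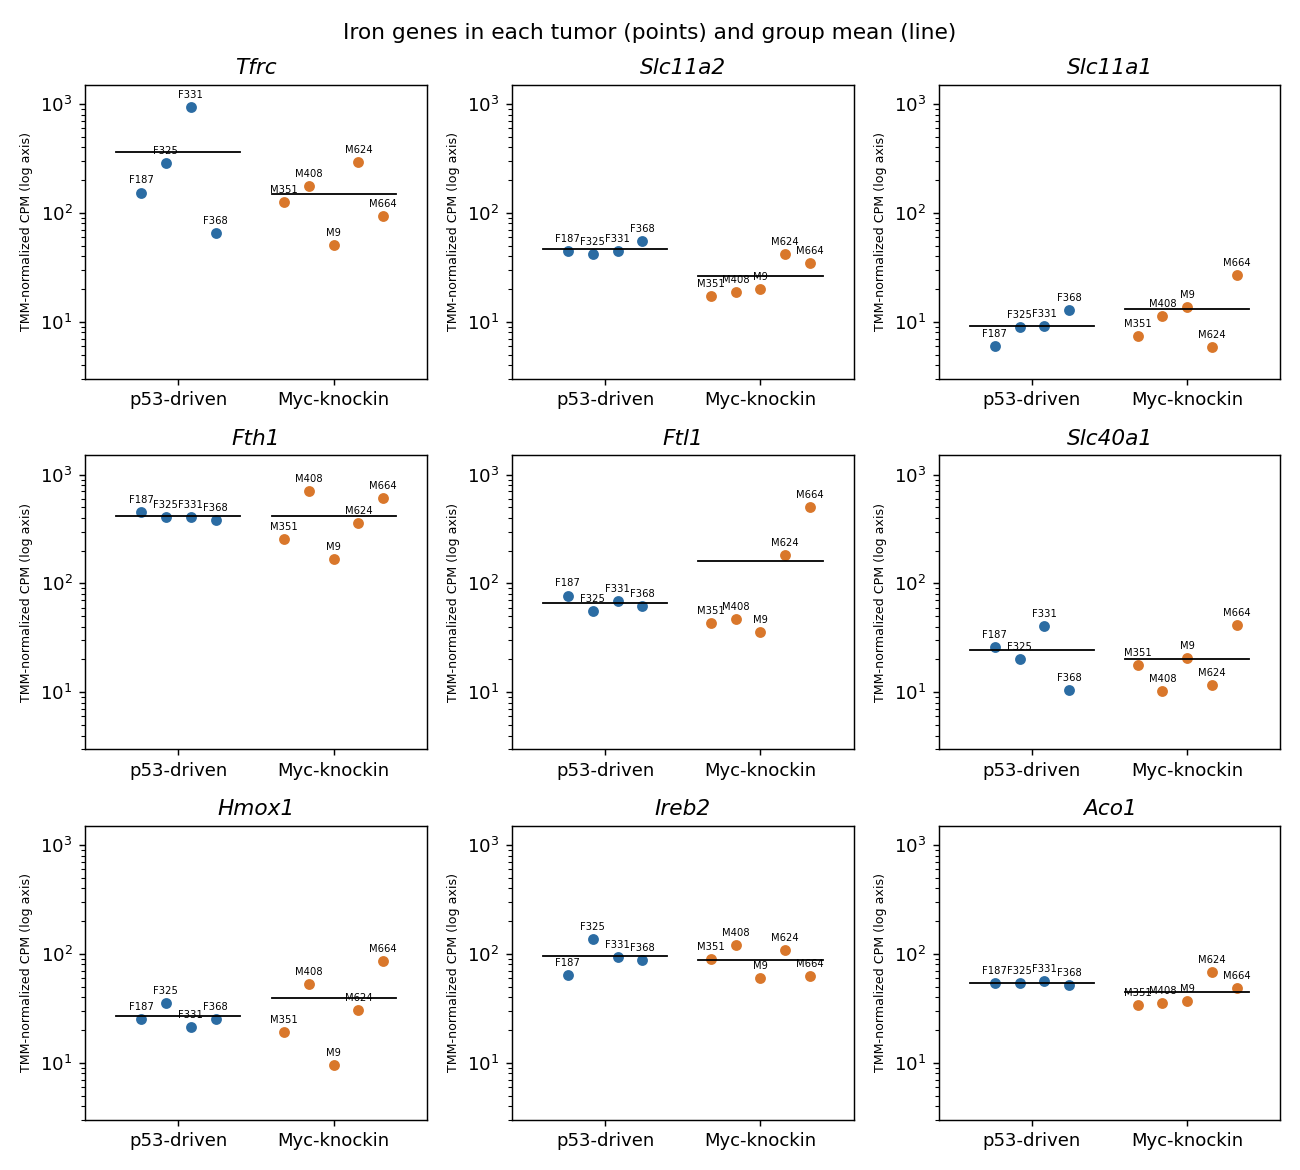
TMM-normalized read counts scaled to CPM (log axis) of the 9 iron genes in each tumor, p53-driven in blue and Myc-knockin in orange, with the group mean as a line. Slc11a2 alone has groups that do not meet, by the small step from 42.1 to 41.9 CPM. Tfrc is highest in F331 at 949 CPM, and Ftl1 is highest in M664 at 502 CPM.

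Neither import gene was called, although both were lower on average in Myc-knockin tumors. Tfrc (chr16:32608920-32632794, ENSMUSG00000022797) was at 154, 285, 949 and 65.4 CPM in F187, F325, F331 and F368, all p53-driven. It was at 127, 178, 51.0, 295 and 94.0 CPM in M351, M408, M9, M624 and M664, all Myc-knockin. The groups overlapped throughout, and 1 tumor, F331, lay far above the rest. The log2 fold change was -1.28 (SE 0.71, 95% interval -2.84 to 0.27, edgeR adjusted p = 0.272). Without F331 it was -0.16 (adjusted p = 0.904), so that tumor decides the value, and without M624 and M664 it was -1.54 (adjusted p = 0.282).

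Genes beside Tfrc were examined in the tumor where it stood highest. Of the 30 tested genes within 1 Mb of Tfrc on chromosome 16, F331 was the highest tumor for 3, where it was the highest tumor for 9.6% of all tested genes. Tfrc in F331 was 6.76 times the median of the other 8 tumors. The nearest tested gene, Tnk2, 11.1 kb away, was at 0.626 times the median of the others, and Pcyt1a, 134 kb away on the other side, at 1.84 times. The 3 genes with F331 on top were Tm4sf19 at 15.1 times, its neighbor Gm20056 at 17.8 times and the small gene Gm25848 at 3.05 times, the last at 4.67 CPM. The other 27 lay between 0.293 and 1.91 times. Tm4sf19, also named after osteoclast maturation, was at 45.9 CPM in F331, at 29.6, 17.3 and 8.15 CPM in F187, F325 and F368, and at no more than 3.69 CPM in any Myc-knockin tumor. These neighbors were named after their values were seen.

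**Figure D2:**
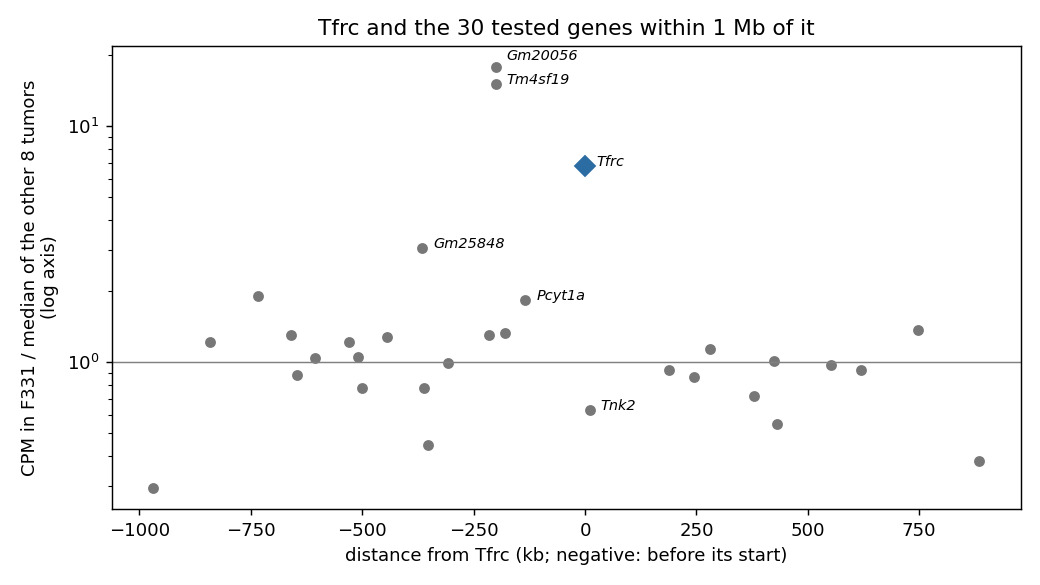
CPM in F331 divided by the median of the other 8 tumors (log axis) for Tfrc and the 30 tested genes within 1 Mb, against distance from Tfrc in kb. Tfrc stands at 6.76, Gm20056 and Tm4sf19 at 17.8 and 15.1, and 27 of the neighbors lie between 0.293 and 1.91.

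Osteoclasts, the bone-resorbing cells of the macrophage lineage, left a signal that was also highest in F331. The summed level of 8 osteoclast markers was 14151 CPM in F331, 7242 in F187, 5216 in F325 and 2716 in F368. In Myc-knockin tumors it was 352, 261, 124, 287 and 2570 CPM in M351, M408, M9, M624 and M664. All 8 were tested and 6 were called lower in Myc-knockin tumors, among them the vacuolar ATPase subunit gene Atp6v0d2 with a log2 fold change of -4.21 (edgeR adjusted p = 0.0116). In the p53-driven group the lowest tumor for Tfrc, F368, was also the lowest for these markers, while in the Myc-knockin group the highest tumor for Tfrc was M624 and for the markers M664. The part of osteoclast RNA in the Tfrc values was not tested.

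Slc11a2 (chr15:100387898-100425072, ENSMUSG00000023030), which moves iron from the endosome into the cytosol, was the only member whose groups did not overlap. It was at 45.0, 42.1, 44.5 and 55.4 CPM in F187, F325, F331 and F368. It was at 17.2, 18.9, 19.9, 41.9 and 34.6 CPM in M351, M408, M9, M624 and M664. The p53-driven values lay close together, at 46.8 ± 5.9 CPM (SD, n = 4), and 3 Myc-knockin tumors lay well below them while M624 and M664 came near. The log2 fold change was -0.80 (SE 0.31, 95% interval -1.49 to -0.11, edgeR adjusted p = 0.135), which missed the threshold. Without M624 and M664 it was -1.26 and passed (adjusted p = 0.0329), as did limma-voom with quality weights on all tumors at -1.15 (adjusted p = 0.0223). Without the satellite-rich libraries F187, M351, M408 and M9 it was -0.29 (adjusted p = 0.448), and over all 20 alternatives the adjusted p ran from 0.0223 to 0.617. The call therefore depends on the libraries and on the method used. Without M624 and M664 every Myc-knockin library left was satellite-rich, and of the p53-driven libraries only F187 was.

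Slc11a1 (chr1:74375195-74386062, ENSMUSG00000026177), the phagosomal iron transporter of macrophages and neutrophils, was the member with the fewest counts. It was at 5.92, 9.02, 9.08 and 12.9 CPM in F187, F325, F331 and F368, and at 7.39, 11.4, 13.5, 5.87 and 26.7 CPM in M351, M408, M9, M624 and M664. M664 was the highest and M624 the lowest of all 9. The log2 fold change was 0.49 (SE 0.47, edgeR adjusted p = 0.527). It was 0.044 without M664, 0.77 without M624 and 0.27 without both, with no adjusted p under 0.302 in any alternative, so the value rests on single tumors. Its raw counts were 12 in M351 and 17 in M9, where the estimated genomic background was 4.16 and 4.61 counts.

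Neither ferritin gene was called, and the Myc-knockin tumors varied more than the p53-driven tumors in both. Fth1 (chr19:9980598-9985098, ENSMUSG00000024661) was at 455, 407, 404 and 385 CPM in F187, F325, F331 and F368. It was at 255, 708, 167, 358 and 615 CPM in M351, M408, M9, M624 and M664. The p53-driven tumors were close to each other at 413 ± 29.5 CPM (SD, n = 4) and the Myc-knockin tumors spread to both sides of them at 421 ± 233 CPM (SD, n = 5). The log2 fold change was 0.03 (SE 0.43, 95% interval -0.91 to 0.97, edgeR adjusted p = 0.977), and its sign turned in several alternatives.

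Ftl1 (chr7:45457944-45459884, ENSMUSG00000050708) was at 77.4, 56.2, 68.7 and 62.4 CPM in F187, F325, F331 and F368. It was at 43.1, 46.7, 35.9, 184 and 502 CPM in M351, M408, M9, M624 and M664. Of the Myc-knockin tumors 3 lay below every p53-driven tumor, and M624 and M664 lay above every one. The log2 fold change over all tumors was 1.31 (SE 0.74, edgeR adjusted p = 0.283). It was -0.59 without M624 and M664 (adjusted p = 0.157), and 2.49 without F187, M351, M408 and M9 (adjusted p = 0.0141), with adjusted p values from 0.0141 to 0.776 over all 21 alternatives, so its direction is set by which libraries are used.

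Reads of Ftl1 can be shared with near-identical copies. The copy Ftl1-ps1 on chromosome 13, listed as a protein-coding gene in the table, had 71, 261, 343 and 188 counts in F187, F325, F331 and F368 and 22, 62, 12, 4046 and 9829 counts in M351, M408, M9, M624 and M664. On the scale of log2 CPM over the 9 tumors it had the highest Pearson correlation with Ftl1 of all tested genes of at least 10 CPM (r = 0.991, a description, with libraries shared between the points). With both genes summed the log2 fold change came to 1.65 (edgeR adjusted p = 0.241). How reads that map to several places were counted is not stated, so the split between both genes is uncertain. The other ferritin copies in the table, Ftl1-ps2, Ftl2-ps, Fth-ps2 and Fth-ps3, had at most 7 counts in any tumor.

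**Figure D3:**
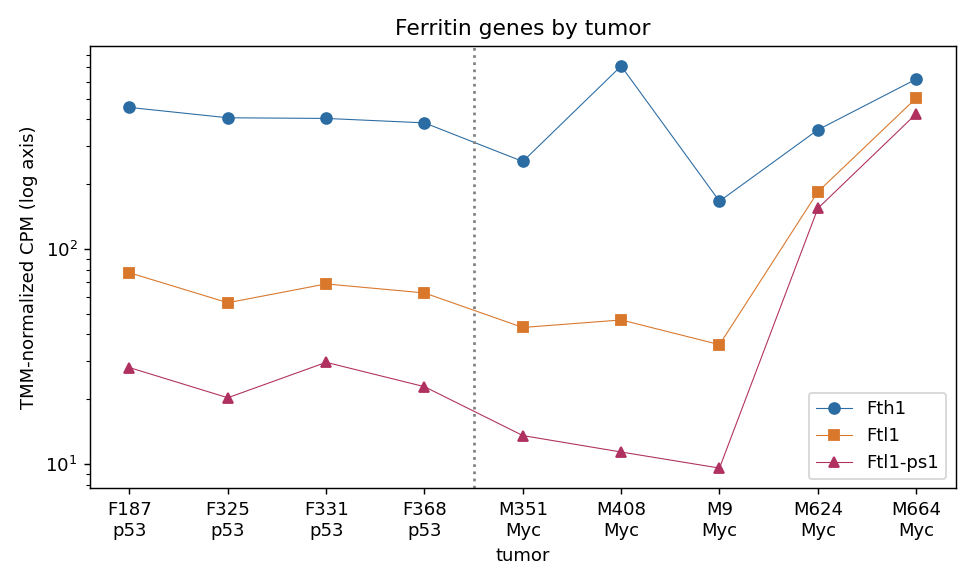
TMM-normalized CPM (log axis) of Fth1, Ftl1 and Ftl1-ps1 in each tumor, p53-driven to the left of the dotted line and Myc-knockin to its right, with lines that only join the points of a gene. Ftl1 and Ftl1-ps1 are both highest in M624 and M664, at 184 and 502 CPM for Ftl1, while Fth1 lies between 167 and 708 CPM without that step.

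Neither the exporter nor the heme oxygenase gene was called, and their groups overlapped. Slc40a1 (chr1:45908068-45926523, ENSMUSG00000025993) was at 26.1, 20.1, 40.7 and 10.5 CPM in F187, F325, F331 and F368, and at 17.9, 10.3, 20.7, 11.6 and 41.4 CPM in M351, M408, M9, M624 and M664. The groups covered nearly one range, 10.5 to 40.7 CPM and 10.3 to 41.4 CPM, and the log2 fold change was -0.25 (SE 0.49, edgeR adjusted p = 0.777), or -0.57 without M624 and M664 and 0.13 without F331. Estimated background made up 11.2 of the 26 counts in M9 and 10.1 of the 29 counts in M351. Hmox1 (chr8:75093621-75100589, ENSMUSG00000005413) was at 25.3, 35.2, 21.2 and 25.0 CPM in F187, F325, F331 and F368, and at 19.1, 53.3, 9.56, 30.4 and 86.2 CPM in M351, M408, M9, M624 and M664. The Myc-knockin tumors held both the lowest and the highest value, and the log2 fold change was 0.60 (SE 0.52, edgeR adjusted p = 0.492), or 0.12 without M664 and 0.17 without M624 and M664.

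The iron sensors were not called. Aco1 (chr4:40143081-40198338, ENSMUSG00000028405), which works as cytosolic aconitase when it holds an iron-sulfur cluster, was at 54.1, 54.5, 56.5 and 52.03 CPM in F187, F325, F331 and F368, a spread of 1.82 CPM (SD, n = 4). It was at 33.9, 35.7, 36.6, 67.6 and 49.1 CPM in M351, M408, M9, M624 and M664, with 4 of 5 below every p53-driven tumor and M624 above every one. The log2 fold change was -0.28 (SE 0.26, edgeR adjusted p = 0.534). It was -0.56 without M624 and M664 (adjusted p = 0.126), -0.41 without M624 and -0.17 without M408. Ireb2 (chr9:54863789-54912530, ENSMUSG00000032293), whose protein is broken down when iron is plentiful, ranged from 64.0 to 136 CPM in p53-driven and from 59.8 to 120 CPM in Myc-knockin tumors. Its log2 fold change was -0.12 (SE 0.31, 95% interval -0.81 to 0.57, edgeR adjusted p = 0.84), and -0.02 without M624 and M664.

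**Figure D4:**
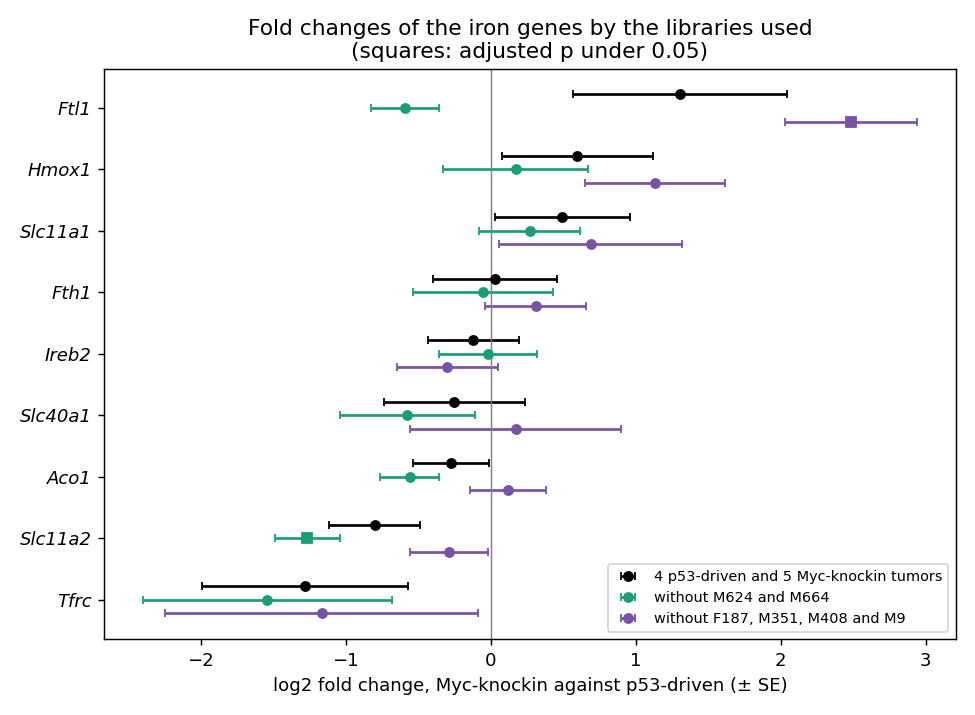
Log2 fold change of each iron gene, Myc-knockin against p53-driven, with its SE, for all 9 tumors (black), without M624 and M664 (green) and without F187, M351, M408 and M9 (purple), with squares where the adjusted p is under 0.05. Ftl1 moves from 1.31 to -0.59 and 2.49, and Slc11a2 from -0.80 to -1.26 and -0.29.

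Levels were compared between genes per kilobase of exon. In p53-driven tumors Fth1 was highest at 119 ± 8.5 CPM per kb (SD, n = 4), followed by Tfrc at 58.8 ± 64.8 and Ftl1 at 49.4 ± 6.8. Hmox1 at 15.2 ± 3.4, Aco1 at 12.1 ± 0.41, Ireb2 at 10.1 ± 3.2 and Slc11a2 at 7.36 ± 0.93 came next, and Slc40a1 at 2.70 ± 1.4 and Slc11a1 at 2.49 ± 0.77 were lowest. Fth1 and Tfrc, Tfrc and Ftl1, Hmox1 and Aco1, Aco1 and Ireb2, Ireb2 and Slc11a2, and Slc40a1 and Slc11a1 each lay within a spread of each other. In Myc-knockin tumors the means were 121 ± 67.1 CPM per kb (SD, n = 5) for Fth1, 121 ± 149 for Ftl1, 24.1 ± 15.2 for Tfrc, 22.7 ± 17.5 for Hmox1, 9.91 ± 3.2 for Aco1, 9.28 ± 2.8 for Ireb2, 4.17 ± 1.7 for Slc11a2, 3.50 ± 2.2 for Slc11a1 and 2.26 ± 1.4 for Slc40a1. No neighbors in that order differed by more than their spread except Ireb2 and Slc11a2. With the length of the principal transcript in place of all exons, Aco1 moved below Ireb2 in both groups and below Slc11a2 in the p53-driven group, and Slc40a1 came above Slc11a1 also in the Myc-knockin group.

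Ratios within a tumor do not depend on the scaling between libraries, and 7 were tested by two-sided exact permutation over 126 arrangements, whose smallest p is 0.0159. A single ratio at that p reaches an adjusted p of 0.111 over the 7, so 1 ratio alone could not pass. On the log2 scale Tfrc lay -0.85 ± 1.62 relative to Fth1 in p53-driven (SD, n = 4) and -1.54 ± 0.93 in Myc-knockin tumors (SD, n = 5), a difference of -0.69 (exact permutation p = 0.46, adjusted p = 0.537). Fth1 lay 2.65 ± 0.14 above Ftl1 in p53-driven tumors, where the ratio hardly varied, and 1.99 ± 1.42 above it in Myc-knockin tumors, where it ran from 0.29 in M664 to 3.92 in M408 (difference -0.66, exact permutation p = 0.365, adjusted p = 0.511). The ratio of Slc11a1 to Slc11a2 differed by 1.23 (exact permutation p = 0.0635, adjusted p = 0.148), and that of Aco1 to Ireb2 differed by -0.21 (exact permutation p = 0.54, adjusted p = 0.54).

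The macrophage genes among the members were also set against the mean of macrophage markers. The mean log2 CPM of 12 macrophage markers was 5.70 ± 0.37 in p53-driven (SD, n = 4) and 4.75 ± 0.77 in Myc-knockin tumors (SD, n = 5), and 3 of the 12, Cd68, Csf1r and Tyrobp, were called lower. The list did not move as one, since 4 of the 12 had a positive log2 fold change, Fcgr1 at 0.65, C1qb at 0.56, C1qa at 0.17 and Aif1 at 0.06, none of them called. In M664 C1qa and C1qb were at 172 and 202 CPM, above every p53-driven tumor. Relative to this mean Slc11a1 lay at -2.55, -2.62, -2.61 and -2.29 on the log2 scale in F187, F325, F331 and F368. It lay at -1.52, -1.67, -0.71, -1.21 and -1.06 in M351, M408, M9, M624 and M664. Every Myc-knockin tumor was above every p53-driven tumor, by a mean of 1.28 (higher in 5 of 5, exact permutation p = 0.0159, the smallest possible, adjusted p = 0.111). The difference was 1.18 with genomic background subtracted, 1.22 without M624 and M664, and 1.37 without the 4 satellite-rich libraries. The lower mean of the markers in Myc-knockin tumors is itself part of these ratios. In the p53-driven group Cd68 and Tyrobp had the order of the summed osteoclast markers, F331, F187, F325 and F368, and Csf1r did not. The part of osteoclast RNA in the mean of the macrophage markers was not tested. Hmox1 lay -0.98 ± 0.46 from the macrophage markers in p53-driven and 0.18 ± 0.90 in Myc-knockin tumors, a difference of 1.16 (exact permutation p = 0.0635, adjusted p = 0.148). For Slc40a1 the difference was 0.67 (exact permutation p = 0.254, adjusted p = 0.444).

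Markers of iron-recycling macrophages, which line spleen and liver sinusoids, gave no clear shift. Of 6 such markers 4 were tested and none was called. Cd163, the hemoglobin scavenger receptor, was at 66.8, 63.4, 14.5 and 88.6 CPM in p53-driven and at 22.8, 27.5, 46.2, 2.86 and 21.03 CPM in Myc-knockin tumors (log2 fold change -1.31, edgeR adjusted p = 0.225). Their summed level was 89.9 to 169 CPM in p53-driven and 4.65 to 136 CPM in Myc-knockin tumors, lowest in M624. Erythroid markers summed to 2.02 to 8.87 CPM in p53-driven and 17.9 to 765 CPM in Myc-knockin tumors, with M624 and M664 at 209 and 765 CPM, and only 1 of their 8 genes passed the filter on low counts. The part of red cell RNA in the members' values was not tested.

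The genes around the members were taken from 7 lists, 6 of iron and heme genes and 1 of targets of NRF2 and BACH1. Of 12 tested genes of the transferrin cycle and iron import 2 were called, both lower and both iron reductases. Steap4, a metalloreductase of endosomes and the cell surface, was at 115, 74.0, 168 and 53.7 CPM in F187, F325, F331 and F368 and at 9.23, 31.3, 11.2, 14.7 and 17.4 CPM in M351, M408, M9, M624 and M664. All Myc-knockin tumors lay below all p53-driven tumors, with a log2 fold change of -2.59 (SE 0.43, edgeR adjusted p = 0.02). In the p53-driven group its order, F331, F187, F325 and F368, was that of the summed osteoclast markers, which were also lower in Myc-knockin tumors, and their part in its values was not tested. Cybrd1, the duodenal cytochrome b that reduces ferric iron ahead of DMT1, was at 12.2, 63.5, 47.2 and 110.1 CPM and at 8.62, 0.733, 15.9, 1.56 and 3.58 CPM in the same order. Its groups overlapped by F187 and M9, and its log2 fold change was -3.52 (SE 0.85, edgeR adjusted p = 0.0411). Leaving out F325, F331 or F368 took away both calls (adjusted p from 0.0619 to 0.0647 for Steap4, and 0.111 to 0.153 for Cybrd1). Steap4 also missed the threshold with library size alone (adjusted p = 0.0851). Cybrd1 also missed it without M624 and M664 (0.101), without M351, M624 or M664 alone, with upper-quartile scaling (0.0531) and with limma-voom (0.0607). In the fits without F325, F331 or F368 the number of all genes called also dropped, to between 5 and 8.

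In the remaining lists no gene was called. Of the 7 tested genes of storage, iron chaperones and ferritin turnover, the 2 with the smallest p were Herc2, a ubiquitin ligase, with a log2 fold change of -0.79 (edgeR adjusted p = 0.112), and Skp1a at 0.64 (adjusted p = 0.309). Of 6 in iron export and systemic control they were Cp, the ferroxidase ceruloplasmin, at -1.93 (adjusted p = 0.137), and its relative Heph at -1.04 (adjusted p = 0.485). Heph was at 36.6 CPM in F368, at 2.68 to 4.51 CPM in the other p53-driven tumors and at 1.47 to 15.9 CPM in Myc-knockin tumors. Of 13 in heme uptake, transport and breakdown, 10 had a negative log2 fold change, with a median of -0.35. Lrp1, a receptor for heme bound to hemopexin, was at 513 to 1190.2 CPM in p53-driven and 206 to 430.0 CPM in Myc-knockin tumors (log2 fold change -1.42, adjusted p = 0.0523), and the heme transporter gene Slc48a1 followed at -1.40 (adjusted p = 0.094). Hmox2, the constitutive heme oxygenase, named after its values were seen, was at 33.2 to 39.0 CPM in p53-driven and 19.8 to 30.3 CPM in Myc-knockin tumors, without overlap (log2 fold change -0.67, adjusted p = 0.103). Hmox2 was called by limma-voom, where 10.8% of all tested genes were, and in no other alternative. It was at -0.79 without M624 and M664 (adjusted p = 0.0609) and at -0.48 without F187, M351, M408 and M9 (adjusted p = 0.211).

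The lists of mitochondrial iron import and heme synthesis, and of iron-sulfur cluster assembly, had positive medians, which were lower without M624 and M664. Of 13 tested genes of mitochondrial iron import and heme synthesis 10 had a positive log2 fold change, with a median of 0.51, and of 20 for iron-sulfur cluster assembly 14 did, with a median of 0.75, beside 0.14 for all tested genes. Slc25a28, the iron importer mitoferrin 2, was at 4.34 to 5.68 CPM in p53-driven and 7.88 to 40.8 CPM in Myc-knockin tumors (log2 fold change 1.86, edgeR adjusted p = 0.0525), and the glycine carrier gene Slc25a38 was at 1.12 (adjusted p = 0.148). Ciapin1, of the cytosolic cluster assembly pathway, was at 5.11 to 12.6 and 15.4 to 44.5 CPM (log2 fold change 1.55, adjusted p = 0.0524), and Glrx5, a mitochondrial glutaredoxin that passes clusters on, at 19.0 to 31.7 and 35.5 to 132 CPM (log2 fold change 1.68, adjusted p = 0.0565). The groups did not overlap for 1 of the 13 genes, Slc25a28, and for 3 of the 20, among them Ciapin1 and Glrx5, beside 13% of all tested genes. These genes were named for their small p. For Ciapin1 estimated background made up 10.3 of the 25 counts in M351 and 11.5 of the 29 counts in M9. With background subtracted Glrx5 and Slc25a28 were called and Ciapin1 was not, where 7.83% of all tested genes were called. Without M624 and M664 the medians of these lists were 0.21 and 0.21, beside 0.08 for all tested genes. Slc25a28 was then at 1.03 (adjusted p = 0.1), Ciapin1 at 1.08 (adjusted p = 0.107) and Glrx5 at 0.81 (adjusted p = 0.0934), and of the first 6 lists Slc48a1 and Steap4 were called, where 4.61% of all tested genes were. Without F187, M351, M408 and M9 the medians were 0.82 and 1.08, and 18 genes of the first 6 lists were called, where 27.9% of all tested genes were. The 12 tested targets of NRF2 and BACH1, transcription factors that also act on Hmox1 and the ferritin genes, had a median of 0.21. The log2 fold change was positive for 8 and negative for 4. Gclc at 1.10 (adjusted p = 0.0707) and Txn1 at 1.28 (adjusted p = 0.109) had the smallest p. Txn1 was at 201 and 160 CPM in M624 and M664, against 50.5, 66.7 and 45.4 CPM in M351, M408 and M9. Srxn1, named after its values were seen, was at -1.22 (adjusted p = 0.13). It was the only 1 of the 12 without overlap. Without M624 and M664 the median of this list was 0.05, and without F187, M351, M408 and M9 it was 0.15.

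**Figure D5:**
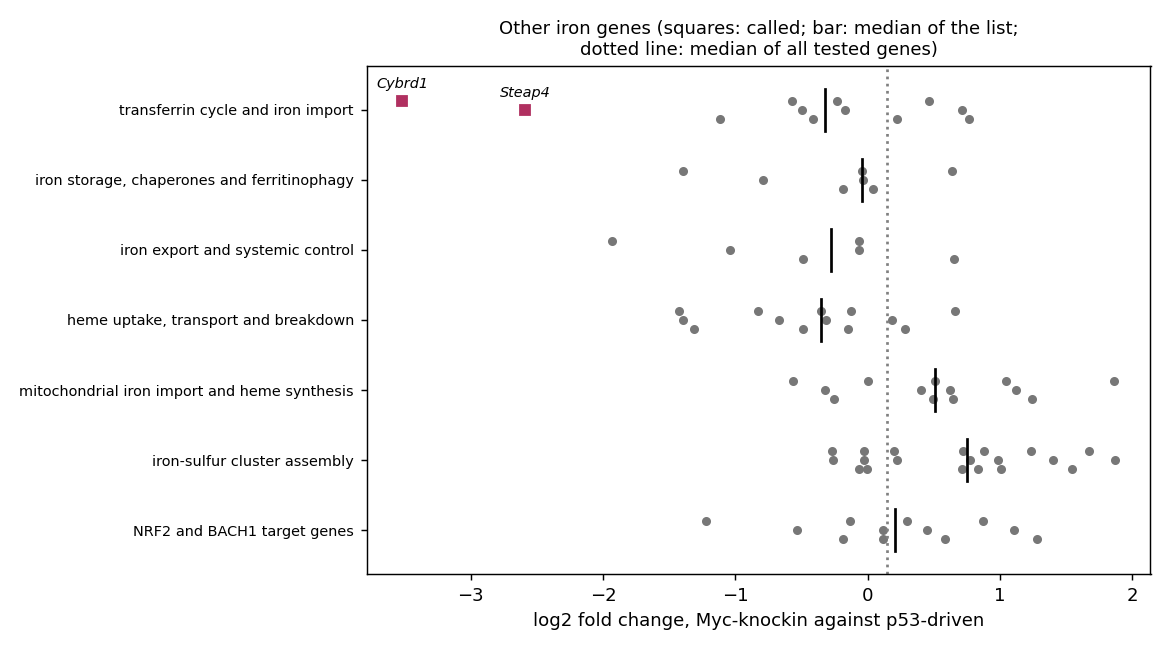
Log2 fold change, Myc-knockin against p53-driven, of each tested gene in the 7 other lists of iron genes, with the called genes as squares, the median of each list as a bar and the median of all tested genes (0.14) dotted. Steap4 at -2.59 and Cybrd1 at -3.52 are the only genes called, and the medians run from -0.35 for heme uptake, transport and breakdown to 0.75 for iron-sulfur cluster assembly.

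The promoters were searched for the letters CACGTG, the core of the motif that MYC and other factors of its family bind. Promoter windows of 300 bases from RefSeq were at hand for 6 of the 9 members, 8 windows in all, and 0 held these letters, where 7.15% of 32851 windows did. This says only that the letters are not in these windows.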

How the data were processed

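RNA was taken from whole tumors of 4 p53-driven and 5 Myc-knockin mice. The authors describe enriching mRNA with oligo-dT beads, and their description names no difference in protocol for M624 and M664. They trimmed reads with Trim Galore, mapped them with STAR to mm10 and deposited raw featureCounts counts per gene, without normalization. The strand setting and the handling of multi-mapped reads are not given in the sources used here. Column names are absent from the labels. The study's supporting data list 6 column names under a genotype, and M351, M9 and M664 were placed by the letter M. Whether p values cover more than technical spread rests on each column being a separate mouse.

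Genes were tested in R 4.3.3 with edgeR 4.0.16 (glmQLFit, glmQLFTest, TMM, filterByExpr with a minimum count of 10), adjusted by Benjamini-Hochberg over 15365 genes with a fold change above 1.5 and an adjusted p below 0.05 for a call. The alternatives used DESeq2 1.42.0, limma 3.58.1, other scalings, filters and sets of tumors. Log2 CPM used a prior count of 2. Ratios were compared with scipy 1.17.1. Positions and exon lengths came from the GENCODE M21 annotation, which held 55034 identifiers. A floor of 3 counts was 0.114 to 2.39 CPM and covers counting error only. The fits were tested on simulated data. The members and lists were chosen with earlier results of these data known. Named beside the members were the genes called in the other lists, or the 2 with the smallest p where none was.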

Additional observations from a re-analysis of the deposited data

Results flagged for a closer look

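In the Myc-knockin group the log2 ratio of Slc40a1 to the macrophage markers was -1.81 in M408, while the other 4 tumors lay between -0.43 and -0.11. The gap to the nearest tumor was 0.808 of the group's range. It was the 1 group flagged of 36 examined, and chance flags about 1 in 20.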

How the results depend on the processing

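No paired analysis was possible because the table's columns carry no replicate numbers. With limma-voom Fth1 was -0.62, Ftl1 -0.34 and Slc11a2 -1.15 (log2 fold change). It called 1 member and 10.8% of all tested genes. Without M624 and M664 Fth1 was -0.052, Ftl1 -0.59, Slc11a2 -1.26 and the log2 ratio of Fth1 to Ftl1 0.25. That fit called 1 member and 4.61% of all tested genes. Without F187, M351, M408 and M9 Ftl1 was 2.49, Slc40a1 0.17, Aco1 0.12 and the ratio of Aco1 to Ireb2 0.43. With these libraries left out, 1 member and 27.9% of all tested genes were called. The cause of these changes was not tested.

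With 1 tumor left out, Fth1 ran from -0.21 to 0.23, Ireb2 from -0.29 to 0.10, Slc40a1 from -0.69 to 0.13 and the ratio of Tfrc to Fth1 from -1.26 to 0.0067, and 0 members were called each time. The number of all genes called, 809, then ran from 5 without F368 to 1588 without M9, and that in the other iron lists from 0 to 7.

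All genes called numbered 136 with scaling by library size, 494 with every gene of at least 1 count, 1316 with at least 10 counts in every tumor, 2258 with DESeq2, 1663 with limma-voom and 4595 without F187, M351, M408 and M9. Of the calls 43% were higher in Myc-knockin tumors, and 64.5% with upper-quartile scaling. The other iron lists, the first 6, held 12, 7, 6, 13, 13 and 20 tested genes in the main fit. Of these 2 were called there, where 5.27% of all tested genes were. In these lists 6 were called with upper-quartile scaling (6.32% of all tested genes), 1 with scaling by library size (0.885%) and 8 with DESeq2 (4.75%). The stricter filter of 10 counts gave 7 (14.2%) and limma-voom 8 (10.8%). Without those 4 tumors 18 were called (27.9%), and with background subtracted 5 (7.83%).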
